A study of Arabidopsis thaliana with 24 samples.

Results

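Gene expression in Arabidopsis thaliana seedlings labelled as homozygous mutants of 4 genes for histone methyltransferases, ATX1, ATX2, ATX4 and ATX5, was compared with that in seedlings labelled as mutants of ATX1 and ATX2 only, so that the comparison shows what the atx4 and atx5 mutations add once atx1 and atx2 are already present. A gene entered if 2 or more of the 14 libraries in the deposited table had a value of 1 or above, which left 24843 of 32548 genes. The atx1/2/4/5 group is labelled atx1(-/-);atx2(-/-);atx4(-/-);atx5(-/-) and the atx1/2 group atx1(-/-);atx2(-/-), with 2 libraries each. The effect of atx4 and atx5 mutations in a wild-type background was taken from atx4/5, labelled atx4(-/-);atx5(-/-), and from Col-0, the wild-type accession, also with 2 libraries each. Values of a further quadruple mutant in the table, labelled atx2/3/4/5, are given beside a few genes. Total RNA came from whole seedlings 11 days old, grown on plates with a 16 h light period (23 °C) and an 8 h dark period (22 °C). Nothing in the labels says that the libraries of a group came from separate cultures, so the spread that the p-values rest on may be purely technical. The labels do not give the alleles or say how the mutants were combined, so the atx4 and atx5 alleles of atx4/5 and atx1/2/4/5 may differ.

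COMPASS complexes place methyl groups on lysine 4 of histone H3, a mark found at the start of active genes. In Arabidopsis, ATX1 and ATX2 form one related pair of catalytic subunits and ATX3, ATX4 and ATX5 another group, and the loss of 1 member is often covered by the others. JmjC-domain and LSD1-type enzymes remove the mark, and DNA glycosylases of the ROS1 family remove methylated cytosine from DNA.

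The values are normalised read counts at a library size common to the table, with no scaling for gene length, so a value of 10 rests on about 10 reads. One read was worth 0.859 and 0.834 in the atx1/2/4/5 libraries and 1.03 and 1.11 in the atx1/2 libraries. Summed values were 26214969 and 26109671 in atx1/2/4/5, against 28760490 and 28498265 in atx1/2. The Pearson correlation over genes between the replicates was 0.989 in both groups. Of the 5 green shoot markers, 5 were lower in atx1/2/4/5 and their sum was 791469 and 774976, against 1171704 and 1170268 in atx1/2. The 9 root markers summed to 4603 and 4080 in atx1/2/4/5 and 4114 and 3820 in atx1/2, and none was called. In whole seedlings, fewer cells of a type and less RNA per cell cannot be told apart.

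ATX4 (AT4G27910, chromosome 4, 13893915 to 13900630 in the TAIR10.1 annotation) had 37.9 and 21.2 in the atx1/2/4/5 libraries, against 478 and 507 in the atx1/2 libraries. Its log2 fold change on the scale log2(value + 1) was -4.07 ± 0.21 (SE, limma, Benjamini-Hochberg adjusted p = 1.52e-08). ATX5 (AT5G53430, chromosome 5, 21677146 to 21684122) had 43.8 and 31.9 in atx1/2/4/5 and 481 and 528 in atx1/2 (log2 fold change -3.72 ± 0.14, limma adjusted p = 4.69e-10). Both genes were thus lower in the libraries labelled as mutant for them. ATX1 (AT2G31650, chromosome 2, 13455272 to 13462431) carries a mutation in both groups, and its values were 568 and 191 in atx1/2/4/5 against 181 and 181 in atx1/2 and 258 and 257 in Col-0. The atx1/2/4/5 libraries differed 3-fold from each other for this gene, and the difference between groups was not called (limma adjusted p = 0.149). Without atx1/2/4/5 replicate 2 it passed the test at a log2 fold change of 1.65. ATX2, also mutant in both groups, had 1382 and 1347 in atx1/2/4/5 and 1313 and 1318 in atx1/2, against 1273 and 1393 in Col-0, so its RNA was at the wild-type level in the libraries labelled as mutant for it. These values do not check the labels for ATX1 and ATX2, whose alleles are not given. ATX3 had 428 and 391 in atx1/2/4/5 and 444 and 437 in atx1/2, and neither ATX2 nor ATX3 was called.

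The added mutations were followed by changes in both directions. With limma and a Benjamini-Hochberg adjusted p under 0.05, 3750 genes were higher in atx1/2/4/5, which is 15.1% of the genes tested, and 3944 were lower, which is 15.9%. A change of at least 2-fold was called for 755 genes that were higher (3.04%) and 852 that were lower (3.43%), together 6.47% of the genes tested. The 2 libraries of atx1/2/4/5 did not overlap the 2 of atx1/2 in 65.3% of all genes tested (31.6% higher and 33.7% lower) and in all 7694 called genes, so a called gene whose groups do not overlap is no result by itself. The median log2 fold change over all genes tested was 0. When the column totals were set equal, the median was 0.118, and 6074 genes were called higher and 2716 lower, so calls of small changes depend on the scaling. The 755 genes with the larger rises had a median value of 76.9 in atx1/2/4/5 and 20.5 in atx1/2, and the 852 with the larger falls 22.2 in atx1/2/4/5 and 75.0 in atx1/2.

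**Figure D1:**
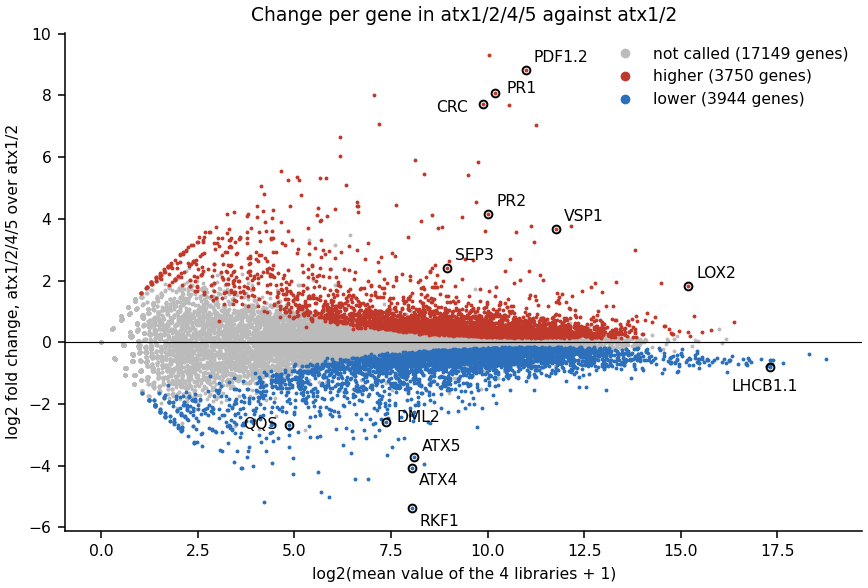
Log2 fold change of each of 24843 genes in atx1/2/4/5 over atx1/2 (y axis) against the log2 of its mean value in the 4 libraries plus 1 (x axis); red and blue points are genes called higher and lower by limma. The largest rises reach log2 fold changes of 7 to 9 and include defence genes such as PDF1.2 and PR1 and the seed gene CRC, while the falls end near -5.38 at RKF1.

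The largest rise was in a small family of plant defensins, short secreted antifungal peptides whose PDF1.2 members are standard markers of jasmonate and ethylene signalling. PDF1.2 (AT5G44420, chromosome 5, 17906968 to 17907638) had 4209 and 3943 in the atx1/2/4/5 libraries, against 9.34 and 6.72 in the atx1/2 libraries (log2 fold change 8.83 ± 0.58, limma adjusted p = 3.94e-06). Its neighbour PDF1.2c (AT5G44430) had 1991 and 2230 in atx1/2/4/5 and 1.07 and 4.35 in atx1/2. On chromosome 2, PDF1.3 (AT2G26010) had 3127 and 2815 in atx1/2/4/5 and 5.39 and 31.4 in atx1/2. The fourth member, PDF1.2b (AT2G26020), had 212 and 319 in atx1/2/4/5 and 0 in both atx1/2 libraries, at least 82.4-fold higher when the floor is set at 3 reads per atx1/2 library. Both atx1/2/4/5 libraries lay above both atx1/2 libraries in each, which the rule that named them required. The annotated transcripts of these genes are 85.6% to 88.8% identical in pairs over their aligned bases, and how reads that fit several of them were counted is not given in the sources used here, so the division among members is uncertain.

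The 250 bases before the annotated start of each of these 4 genes are shown because the family moved together and because a GCC box, the binding motif of ethylene response factors, is known from the PDF1.2 promoter. Sequences are from the TAIR10.1 assembly, 5′ to 3′ on the strand of the gene, and capitals mark GCCGCC, searched on both strands.
PDF1.2 (chr5:17907639-17907888, minus strand): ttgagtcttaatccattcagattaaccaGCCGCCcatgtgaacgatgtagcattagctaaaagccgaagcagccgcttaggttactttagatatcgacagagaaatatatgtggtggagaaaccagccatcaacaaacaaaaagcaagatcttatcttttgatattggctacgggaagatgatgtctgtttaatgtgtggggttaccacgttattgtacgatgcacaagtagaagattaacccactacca
PDF1.2b (chr2:11088873-11089122, plus strand): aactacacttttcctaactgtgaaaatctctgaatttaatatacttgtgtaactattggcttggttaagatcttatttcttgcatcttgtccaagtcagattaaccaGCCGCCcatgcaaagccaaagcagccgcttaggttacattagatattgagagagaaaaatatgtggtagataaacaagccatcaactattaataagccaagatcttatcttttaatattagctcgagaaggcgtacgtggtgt
PDF1.2c (chr5:17909508-17909757, minus strand): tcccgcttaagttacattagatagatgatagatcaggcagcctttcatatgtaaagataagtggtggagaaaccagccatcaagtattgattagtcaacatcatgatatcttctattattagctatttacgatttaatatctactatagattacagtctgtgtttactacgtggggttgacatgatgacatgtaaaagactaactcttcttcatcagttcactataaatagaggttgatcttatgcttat
PDF1.3 (chr2:11087030-11087279, plus strand): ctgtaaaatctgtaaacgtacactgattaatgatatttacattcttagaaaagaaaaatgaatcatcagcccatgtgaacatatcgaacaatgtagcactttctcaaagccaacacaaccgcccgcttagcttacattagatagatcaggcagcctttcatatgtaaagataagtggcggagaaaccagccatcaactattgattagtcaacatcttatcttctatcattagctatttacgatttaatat
GCCGCC lies 222 bases before the start of PDF1.2 and 143 bases before that of PDF1.2b, and there is no match in the windows of PDF1.2c and PDF1.3. Bases further upstream were not searched. The PDF1.2c window opens with bases resembling those that follow GCCGCC in PDF1.2, so whether PDF1.2c holds a match further upstream cannot be told. The log2 fold changes of PDF1.2c and PDF1.3 were 9.31 and 7.69, against 8.83 for PDF1.2 and 8.03 for PDF1.2b. Over all 24842 genes with a full window, 1.93% hold GCCGCC, against 1.99% of the genes at least 2-fold higher and 0.939% of those at least 2-fold lower. Other short motifs were counted in the same windows on both strands. The G-box CACGTG was in 11.4% of windows of the genes at least 2-fold higher and 7.86% of those at least 2-fold lower, against 6.89% of all. The RY core CATGCA, known from promoters of seed genes, was in 17.2% of the higher and 8.92% of the lower set, against 8.33% of all, and the W-box core TTGAC in 50.7% and 47.7%, against 45.0%. None of these motifs contains another.

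Genes of jasmonate synthesis and response rose as a group. Of 25 tested members 19 were higher (76.0%) and 0 were lower, with a median log2 fold change of 1.01 against 0 over all genes. LOX2, the plastid lipoxygenase that opens the pathway in leaves, had 60336 and 57129 in atx1/2/4/5 and 15479 and 17517 in atx1/2 (log2 fold change 1.83 ± 0.10, limma adjusted p = 1.26e-07). AOC2, an allene oxide cyclase further along the same pathway, had 11871 and 10566 in atx1/2/4/5 and 2916 and 2942 in atx1/2, and AOC1 3821 and 3332 against 1295 and 1218. AOS, LOX3, LOX4, AOC3 and OPR3, which encode further enzymes of the pathway, were also called higher. JAR1, which couples jasmonate to isoleucine, and COI1, the receptor subunit, were not called.

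Several repressors of the JAZ family, which jasmonate itself induces, were among the calls. JAZ10 had 282 and 199 in atx1/2/4/5 and 46.8 and 47.6 in atx1/2 (log2 fold change 2.30 ± 0.22, limma adjusted p = 1.28e-06), and JAZ1, JAZ2, JAZ5, JAZ6 and JAZ9 were called higher, while JAZ3, JAZ7, JAZ8 and JAZ12 did not pass the test. Of the outputs, VSP1, a vegetative storage protein of the wound branch, had 7090 and 5850 in atx1/2/4/5 and 572 and 442 in atx1/2, and VSP2 12796 and 11426 against 7433 and 6829. ORA59 and ERF1, the transcription factors of the ethylene-dependent branch that act on PDF1.2, had 368 and 285 against 43.7 and 41.0 and 39.6 and 23.7 against 6.27 and 8.80. Outputs of both branches were therefore called higher. MYC2, the main transcription factor of the wound branch, is listed at 0 in all 14 libraries and was not tested.

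Several enzyme genes were among the largest rises. NATA1, an acetyltransferase that makes N-acetylornithine, a defence compound, had 5845 and 3805 in atx1/2/4/5 and 52.8 and 22.8 in atx1/2 (log2 fold change 7.04 ± 0.68). CYP82G1, which forms volatile homoterpenes, had 101 and 181 in atx1/2/4/5 and 1.04 and 1.11 in atx1/2. TPS04, the terpene synthase that supplies its precursor, had 479 and 606 in atx1/2/4/5 and 16.5 and 3.59 in atx1/2 (limma adjusted p = 0.000226), and was picked after its values were seen, as were BSMT1 and TAT3. BSMT1, which makes methyl salicylate, had 64.3 and 32.0 in atx1/2/4/5 and 0 in both atx1/2 libraries, at least 14.9-fold higher against 3 reads per library. TAT3, a tyrosine aminotransferase induced by jasmonate, had 1512 and 1295 in atx1/2/4/5 and 31.2 and 32.1 in atx1/2. DXPS1, annotated as a 1-deoxy-D-xylulose 5-phosphate synthase, had 348 and 227 in atx1/2/4/5 and 0.0156 and 3.24 in atx1/2, and ELI3-2, an alcohol dehydrogenase induced by pathogens, 133 and 154 against 1.03 and 0.0133.

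Salicylic acid outputs were also higher, while most regulators of that pathway were not called. Of 20 tested members 8 were higher (40.0%) and 0 were lower, with a median log2 fold change of 0.39. PR1, the classical marker of salicylic acid signalling, had 2893 and 1789 in atx1/2/4/5 and 8.31 and 6.69 in atx1/2 (log2 fold change 8.07 ± 0.85, limma adjusted p = 0.000209). PR2, a glucanase, had 1905 and 2033 in atx1/2/4/5 and 101 and 117 in atx1/2, and PR5, a thaumatin-like protein, 808 and 970 against 132 and 154. EDS5, the transporter of the salicylic acid precursor, had 569 and 513 in atx1/2/4/5 and 270 and 257 in atx1/2, and ICS1, the synthase before it, 619 and 701 against 559 and 548 without a call (limma adjusted p = 0.0511). PAD3, an enzyme of camalexin synthesis, WRKY38, FMO1 and SARD1 were the other calls. NPR1, EDS1, PAD4, PBS3, CBP60G, WRKY54 and WRKY70 did not pass the test.

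**Figure D2:**
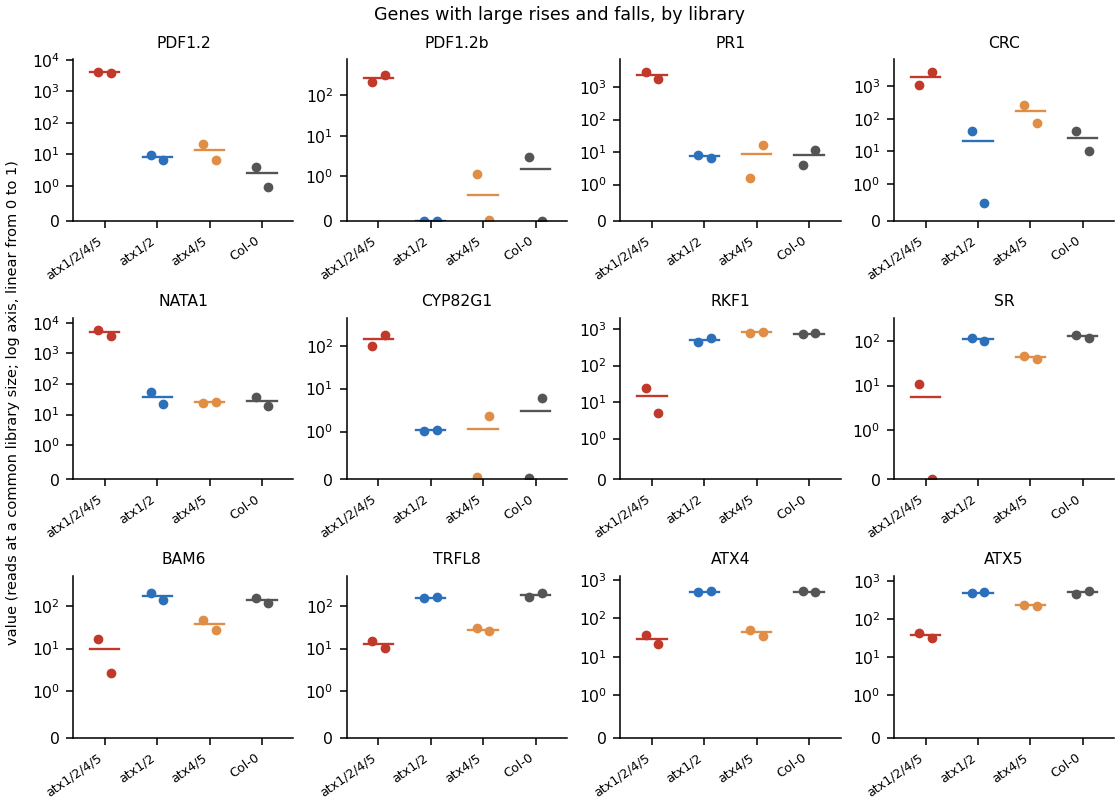
Values of 12 genes in each library (points; bars are group means of 2 libraries) in atx1/2/4/5, atx1/2, atx4/5 and Col-0, on a log axis that is linear from 0 to 1. PDF1.2, PDF1.2b, PR1, NATA1 and CYP82G1 are high in the atx1/2/4/5 libraries and low in the other 6 libraries drawn (atx2/3/4/5 is not drawn). TRFL8 was also called lower in atx4/5 over Col-0, whereas SR and BAM6 had uncalled log2 fold changes of -1.55 and -1.86 there.

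Seed storage and oil body genes were higher in atx1/2/4/5 but varied widely between replicates. Of 18 tested seed maturation genes 12 were higher (66.7%) and 2 were lower (11.1%), with a median log2 fold change of 2.90. CRC, a cruciferin storage protein (CRU3 in the annotation), had 1097 and 2608 in atx1/2/4/5 and 42.3 and 0.487 in atx1/2 (log2 fold change 7.72 ± 1.60, limma adjusted p = 0.00888). SESA1, a 2S albumin, had 35.7 and 183 in atx1/2/4/5 and 3.09 and 0.0396 in atx1/2, and OLEO1, an oleosin of seed oil bodies, 80.1 and 231 against 6.19 and 1.22. The groups did not overlap for these 3 genes, as in every called gene, and in atx1/2/4/5 replicate 2 was 2 to 5 times replicate 1. High values were not particular to atx1/2/4/5. In atx2/3/4/5, CRC had 889 and 935, SESA1 12.4 and 11.7 and OLEO1 72.6 and 67.5. The 9 seed markers fixed for the check summed to 2309 and 5536 in atx1/2/4/5, 244 and 30.6 in atx1/2, 1014 and 286 in atx4/5 and 522 and 288 in Col-0, so the Col-0 and atx4/5 seedlings also held this RNA, and its part in the result was not tested. Without atx1/2/4/5 replicate 2 only 4 seed genes were called higher and CRC was not, and with each of the other libraries left out in turn the count was 9 to 15. With only the groups of the contrast fitted it was 5, again without CRC. The 2 genes called lower are regulators, LEC2 at 0.888 and 0 in atx1/2/4/5 and 4.19 and 7.67 in atx1/2, and DOG1, the seed dormancy gene, at 30.0 and 14.8 against 49.0 and 57.4. No seed gene was called lower without atx1/2/4/5 replicate 2 or without atx1/2 replicate 2, and 1 was without atx1/2 replicate 1.

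Floral organ identity genes, MADS-box factors that specify organs in the flower, were higher in seedlings of atx1/2/4/5. Of 9 tested members 5 were higher (55.6%) and 0 were lower, with a median log2 fold change of 1.81. SEP3 had 883 and 794 in atx1/2/4/5 and 152 and 160 in atx1/2 (log2 fold change 2.42 ± 0.24, limma adjusted p = 1.29e-05). PI, a petal and stamen factor, had 103 and 65.2 in atx1/2/4/5 and 11.5 and 18.7 in atx1/2, and SHP1, a carpel and fruit factor, 79.3 and 67.6 against 6.26 and 7.72. SHP2 and AP3 were called as well, at 23.3 and 28.6 against 3.09 and 0.0396 and 20.9 and 19.4 against 7.25 and 3.42. The groups did not overlap for these 5 genes, as in every called gene. In atx2/3/4/5, PI had 88.2 and 98.5, SHP1 22.9 and 33.3, SHP2 5.24 and 11.4 and SEP3 190 and 277. The 9 floral organ markers summed to 1120 and 986 in atx1/2/4/5, 189 and 197 in atx1/2, 215 and 206 in atx4/5 and 167 and 145 in Col-0. AG, the factor of stamens and carpels, stayed below 10 in all 4 libraries and was not called, and SEP1, SEP2 and STK stayed below 4 in all 4 libraries.

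Of 18 tested regulators of flowering time 6 were lower (33.3%, against 15.9% of all genes) and 3 were higher (16.7%, near the 15.1% of all genes). Only 1 was higher without atx1/2/4/5 replicate 1 or atx1/2 replicate 1, and 4 were lower without atx1/2 replicate 2. SOC1, an integrator that promotes flowering, had 785 and 603 in atx1/2/4/5 and 1399 and 1264 in atx1/2 (log2 fold change -0.95 ± 0.12, limma adjusted p = 7.57e-05). SVP, a repressor and partner of FLC, had 1802 and 1754 in atx1/2/4/5 and 2851 and 2604 in atx1/2. AGL24, FUL and SPL5, which promote the change to flowering, and SNZ, a repressor, were lower too, while CO, TOE2 and TEM1 were called higher. FLC, the main repressor controlled by vernalisation, had 10.6 and 4.59 in atx1/2/4/5 and 5.19 and 3.37 in atx1/2, and FT, the mobile signal for flowering, 5.38 and 0.623 against 6.24 and 5.56. Neither was called (limma adjusted p = 0.362 and 0.287), nor was any of the 6 tested members of the FLC clade.

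Among the chromatin genes, the DNA demethylases and some H3K4 demethylases fell. ROS1, the main DNA demethylase of vegetative tissue, had 482 and 420 in atx1/2/4/5 and 1178 and 1276 in atx1/2 (log2 fold change -1.44 ± 0.11, limma adjusted p = 2.93e-07). DML2, its relative, had 55.1 and 39.9 in atx1/2/4/5 and 285 and 282 in atx1/2 (log2 fold change -2.57 ± 0.15), and DML3 172 and 172 against 481 and 419 (log2 fold change -1.38 ± 0.14). DME, the fourth member of this family, had 2194 and 2247 in atx1/2/4/5 and 2140 and 2338 in atx1/2 and was not called. The remaining 15 tested genes of DNA methylation gave 2 calls, VIM3, which binds methylated DNA, at 508 and 627 against 305 and 401, and MET1, the maintenance methyltransferase for CG sites, at 1412 and 1626 against 1138 and 1230. CMT2, CMT3, DRM2, DDM1 and the subunit genes of the RNA-directed pathway were not called.

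Of 8 tested H3K4 demethylases 4 were lower (50.0%) and 0 were higher. PKDM7D, a JmjC enzyme, had 394 and 292 in atx1/2/4/5 and 984 and 1064 in atx1/2 (log2 fold change -1.59 ± 0.11, limma adjusted p = 1.46e-07). JMJ18, which acts on the same mark in companion cells, had 390 and 418 in atx1/2/4/5 and 599 and 567 in atx1/2. JMJ15 was at 0 in both atx1/2/4/5 libraries and 3.13 and 3.33 in atx1/2, about 3 reads, and AT1G63490 had 683 and 614 against 769 and 776. Each of the last pair lost its call in 6 of the alternatives, among them every one that left out 1 atx1/2 library. JMJ14, LDL1, LDL2 and FLD did not pass the test. Of the 12 tested H3K4 methyltransferase and COMPASS core genes, WDR5A, a core subunit, was the only call beside ATX4 and ATX5, at 123 and 141 against 99.7 and 80.1, and it was lost without atx1/2/4/5 replicate 2 and without atx1/2 replicate 2. IBM1, the H3K9 demethylase, had 759 and 694 in atx1/2/4/5 and 624 and 618 in atx1/2 (limma adjusted p = 0.0539), and AT1G09060 of the same family was called lower at 1348 and 1290 against 1491 and 1668. With column totals set equal, IBM1 was called higher and AT1G09060 was not called.

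The largest falls were mostly in genes of low or moderate level. RKF1, a receptor-like kinase, had 24.1 and 4.93 in atx1/2/4/5 and 455 and 562 in atx1/2 (log2 fold change -5.38 ± 0.55, limma adjusted p = 0.000227). SR, annotated as a serine racemase, had 10.8 and 0 in atx1/2/4/5 and 118 and 103 in atx1/2, and BAM6, a member of the beta-amylase family, 17.01 and 2.69 against 209 and 145. TRFL8, a TRF-like protein, had 14.9 and 10.3 in atx1/2/4/5 and 159 and 164 in atx1/2. CHR42, annotated as a chromatin remodelling factor, had 1.73 and 1.60 in atx1/2/4/5 and 35.4 and 43.0 in atx1/2, and PHE1, a MADS-box gene known for imprinting in the endosperm, 0 and 0.834 against 18.8 and 25.3. ABCB3, an ABC transporter, had 0.888 and 0 in atx1/2/4/5 and 25.9 and 19.0 in atx1/2, and PAP25, a purple acid phosphatase, 2.70 and 0 against 25.0 and 23.3. For every gene named so far in this group all 4 values kept the groups apart, which the rule for naming them required. QQS, an orphan gene whose level depends on DNA methylation, fell to 5.08 and 9.09 in atx1/2/4/5, against 45.8 and 53.0 in atx1/2 (log2 fold change -2.68 ± 0.47), and SDC, silenced by DNA methylation in wild type, was higher at 35.1 and 24.7 against 7.32 and 11.0. SDC lost its call without either atx1/2/4/5 library and without atx1/2 replicate 1.

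**Figure D3:**
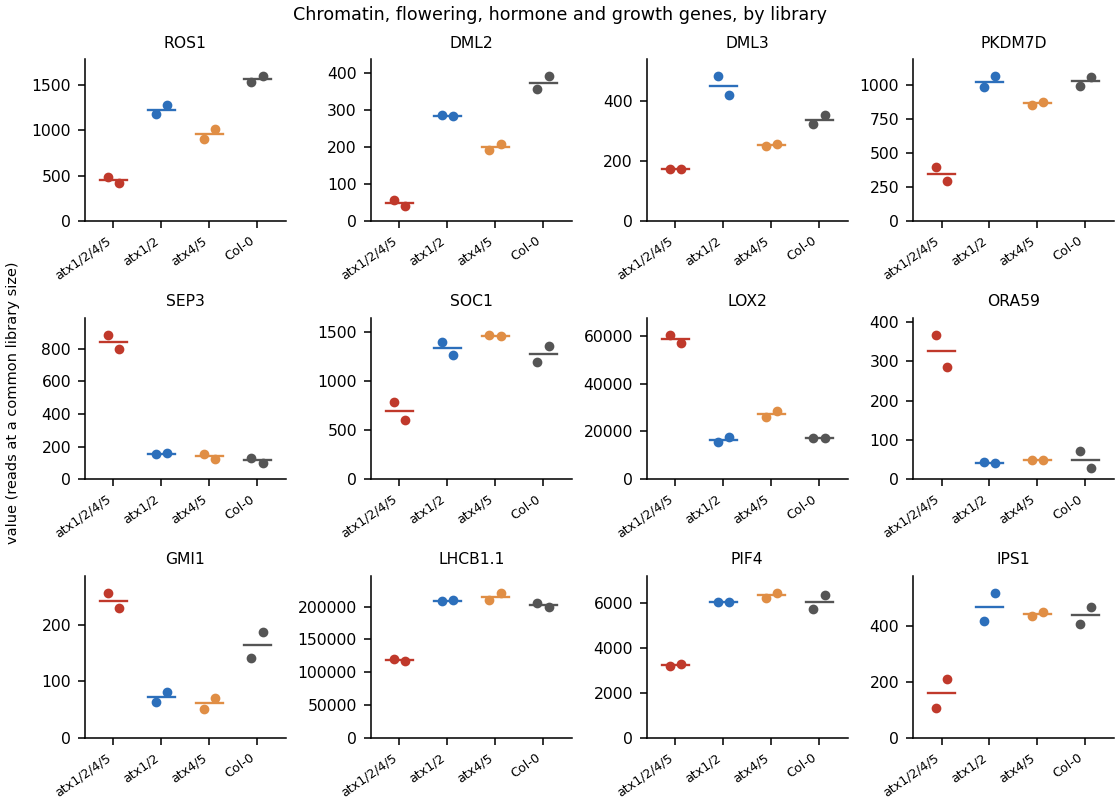
Values of 12 genes of chromatin, flowering, jasmonate, DNA damage, photosynthesis, growth and phosphate response in each library (points; bars are group means of 2 libraries), on linear axes that start at 0. Among the groups drawn, ROS1, DML2 and DML3 are lowest in atx1/2/4/5, intermediate or high in atx1/2 and lower in atx4/5 than in Col-0. SEP3, ORA59, PIF4 and LHCB1.1 set the atx1/2/4/5 libraries apart from the other 6 drawn. The atx2/3/4/5 group, not drawn, had similarly low LHCB1.1 (97967 and 105200) and PIF4 (3312.1 and 3064.5), but SEP3 at 190 and 277.

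Nuclear genes for photosynthesis, which are among the most abundant transcripts of green tissue, were lower almost without exception. Of 25 tested members 24 were lower (96.0%) and 0 were higher, with a median log2 fold change of -0.58. LHCB1.1, an antenna protein of photosystem II, had 120520 and 117570 in atx1/2/4/5 and 208460 and 209740 in atx1/2 (log2 fold change -0.81 ± 0.05, limma adjusted p = 4.72e-08). Its values in atx2/3/4/5 were also low, at 97967 and 105200. LHCA1, an antenna protein of photosystem I, had 123460 and 118400 in atx1/2/4/5 and 202270 and 194330 in atx1/2, and RCA, Rubisco activase, 161610 and 156280 against 260310 and 246640. The Rubisco small subunit gene RBCS1A had 286270 and 282350 in atx1/2/4/5 and 361830 and 370620 in atx1/2, and RBCS1B, at 10043 and 11852 against 12408 and 11731, was the member not called. The groups overlapped in RBCS1B and, as in every called gene, in none of the others named here. LHCB1 and RBCS genes are near copies of each other, so reads may be divided among them. The count depends on the scaling at the top of the range, since 24 stayed lower with column totals set equal, but quantile normalisation left 9 lower and 1 higher and turned LHCA1 to a log2 fold change of 0.01.

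Growth and light genes showed the same direction. Of 11 tested light and shade regulators 6 were lower (54.5%) and 0 were higher. PIF4, a phytochrome-interacting factor that drives elongation, had 3209 and 3292 in atx1/2/4/5 and 6020 and 6061 in atx1/2 (log2 fold change -0.89 ± 0.06, limma adjusted p = 1.02e-07), and PIF5 3582 and 3498 against 5652 and 5768. PIF4 was also low in atx2/3/4/5, at 3312.1 and 3064.5. CRY1, a blue light receptor, HB2, HFR1 and YUC8 were the other calls. In the list of growth hormone synthesis and cytokinin response 7 of 11 were lower (63.6%) and 0 were higher. DWF4, an early enzyme of brassinosteroid synthesis, had 413 and 407 in atx1/2/4/5 and 1014 and 1018 in atx1/2, and CPD, of the same pathway, 4574 and 4617 against 7535 and 8114. The type-A response regulators ARR4, ARR5, ARR6 and ARR15, induced by cytokinin, and the gibberellin enzyme GA3OX1 were called lower too. Fewer members of this list were called lower without atx1/2 replicate 2, and ARR6 was among the calls lost.

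Of 18 tested auxin response genes 9 were lower (50.0%, against 15.9% of all genes) and 4 were higher (22.2%, against 15.1%). GH3.6, an enzyme that conjugates auxin, had 1048 and 949 in atx1/2/4/5 and 2169 and 1957 in atx1/2, GH3.5 639 and 582 against 1404 and 1563, and IAA1, an Aux/IAA repressor, 295 and 311 against 608 and 751. GH3.3 moved the other way, at 880 and 870 in atx1/2/4/5 and 384 and 448 in atx1/2, as did GH3.1 and the auxin response factors ARF4 and ETT. Of 18 tested clock genes 8 were lower (44.4%, against 15.9% of all genes) and 3 were higher (16.7%, near the 15.1% of all genes). The higher count was 2 without the trend, without the filter and with the contrast's groups alone. LNK2, a coactivator of the morning genes, had 5548 and 4959 in atx1/2/4/5 and 9022 and 8740 in atx1/2, and CCA1, a core morning factor, 1477 and 1181 against 2330 and 2026. ELF3, LUX and GI, which act in the evening, were higher, with ELF3 at 1000 and 876 in atx1/2/4/5 and 665 and 717 in atx1/2. The hour of harvest is not in the labels.

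**Figure D4:**
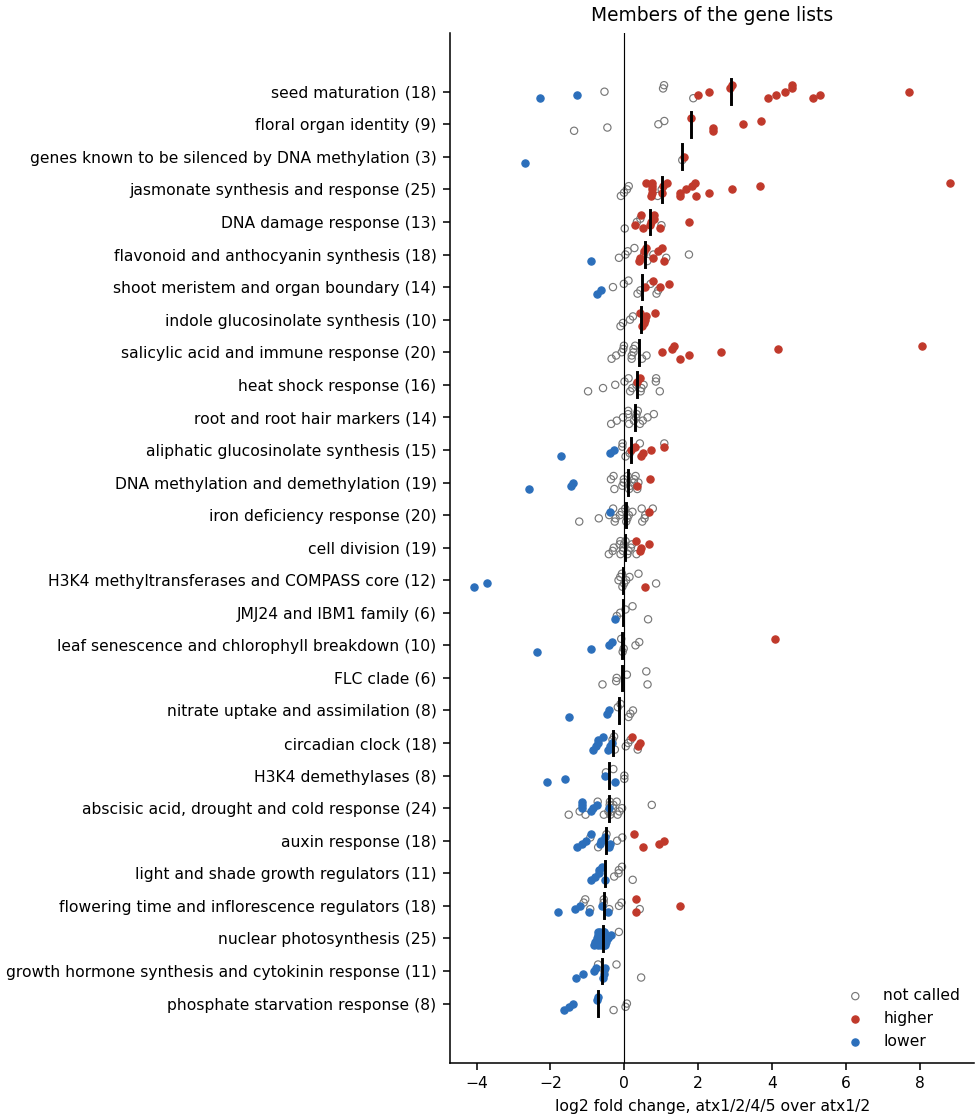
Log2 fold change in atx1/2/4/5 over atx1/2 (x axis) of each tested member of 29 gene lists, with the number tested in brackets; filled points were called by limma, open points were not, and vertical bars are list medians. Jasmonate, seed and floral organ genes lie to the right and photosynthesis, phosphate and growth hormone genes to the left. The JMJ24 and IBM1 family and the FLC clade lie around 0. Root markers have a median of 0.29, with 0 of 14 called.

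Lists of nutrient and stress response followed. Of 8 tested phosphate starvation genes 5 were lower (62.5%), with a median log2 fold change of -0.72, among them SQD2, an enzyme of sulfolipid synthesis, at 2488 and 2849 in atx1/2/4/5 and 4425 and 4500 in atx1/2, and the noncoding RNA IPS1 at 106 and 211 against 418 and 516. Among 8 nitrate genes 3 were lower (37.5%), including the transporter NRT2.1 at 48.6 and 87.3 against 189 and 184. In the list of abscisic acid, drought and cold response 7 of 24 were lower (29.2%) and 0 were higher, with KIN1, a cold-induced gene, at 490 and 464 in atx1/2/4/5 and 1093 and 1008 in atx1/2. P5CS1, the enzyme of proline synthesis, had 9023 and 7756 in atx1/2/4/5 and 17864 and 19212 in atx1/2. That count fell to 4 without atx1/2/4/5 replicate 1 or atx1/2 replicate 1, and rose to 14 when only the 2 groups were fitted. Of 20 iron deficiency genes 1 was higher and 1 lower, F6'H1 and FRO3, and FRO3 lost its call whenever any of the 4 libraries was left out. Of 16 heat shock genes 2 were higher (12.5%, below the 15.1% of all genes), HSC70-1 at 51696 and 56483 against 42139 and 42751 and HSFA7A at 713 and 682 against 559 and 488.

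Genes of the DNA damage response were mostly higher, with 9 of 13 tested members called (69.2%), 0 lower and a median log2 fold change of 0.71. GMI1, a structural maintenance protein induced by DNA breaks, had 257 and 231 in atx1/2/4/5 and 62.5 and 81.6 in atx1/2 (log2 fold change 1.76 ± 0.21, limma adjusted p = 1.44e-05). TSO2, a subunit of ribonucleotide reductase, had 2102 and 2454 in atx1/2/4/5 and 1218 and 1399 in atx1/2, and PARP2, a poly(ADP-ribose) polymerase, 360 and 385 against 217 and 209. The cell cycle inhibitor SMR7 was not called, and SMR5 is listed at 0 in all 14 libraries. Without atx1/2/4/5 replicate 2 or atx1/2 replicate 1, 5 genes were called. In the cell division list 4 of 19 were higher (21.1%, against 15.1% of all genes) and 0 were lower, with a median log2 fold change of 0.03. The 4 were PCNA1 at 474 and 543 against 347 and 296, MCM2 at 715 and 718 against 487 and 552, MCM5 and the cyclin CYCD3;3, while the 5 B-type cyclins tested were not called.

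Secondary metabolism rose in part. Indole glucosinolate genes had 6 of 10 higher (60.0%) and 0 lower, with UGT74B1, a glucosyltransferase shared with the aliphatic branch, at 2102 and 2104 in atx1/2/4/5 and 1413 and 1379 in atx1/2. Aliphatic glucosinolate genes had 6 of 15 higher (40.0%, against 15.1% of all genes). Another 3 were lower, a share near the 15.9% of all genes. With column totals set equal, 8 were higher and 1 was lower. CYP79F2 had 1569 and 1506 in atx1/2/4/5 and 779 and 683 in atx1/2, whereas its tandem copy CYP79F1 had 2904 and 2961 against 3706 and 3468, and reads of the pair may be shared. The regulator MYB76 fell to 13.1 and 10.4 in atx1/2/4/5, against 32.4 and 50.5 in atx1/2. Flavonoid genes had 8 of 18 higher (44.4%) and 1 lower (5.56%), with CHI, chalcone isomerase, at 917 and 1018 in atx1/2/4/5 and 741 and 724 in atx1/2, and CHS, chalcone synthase, at 8144 and 11831 against 6526 and 6618. The count of higher flavonoid genes was 3 without atx1/2/4/5 replicate 2, 2 without atx1/2 replicate 1 and 3 without atx1/2 replicate 2, and CHS was lost without either atx1/2 library.

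Of the 14 tested genes of shoot meristem and organ boundary 4 were higher (28.6%, against 15.1% of all genes). Another 2 were lower (14.3%, against 15.9% of all genes). The higher count was 2 without atx1/2/4/5 replicate 2, without atx1/2 replicate 1 and without atx1/2 replicate 2. KNAT1, a homeobox gene of the meristem, had 287 and 283 in atx1/2/4/5 and 170 and 162 in atx1/2, and LOB, a boundary gene, 105 and 96.9 against 37.5 and 48.5. ATH1, a homeobox gene that acts in the shoot, was lower at 695 and 698 against 1170 and 1163, as was the receptor CLV1. WUS and CLV3, the defining genes of the stem cell centre, were at or below 1.69 in all 4 libraries. In the senescence list SAG13 rose to 1262 and 1172 in atx1/2/4/5, against 68.7 and 74.1 in atx1/2 (log2 fold change 4.07 ± 0.37, limma adjusted p = 3.17e-05). NAP, a NAC factor that promotes senescence, fell to 111 and 64.2 in atx1/2/4/5, against 356 and 532 in atx1/2, and SEN1, SGR1 and NYC1 were also lower, so 1 of 10 tested members was higher and 4 were lower. The lower count was 2 without atx1/2/4/5 replicate 2 or atx1/2 replicate 1, each of which ended the call of SGR1.

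The next comparison asked whether atx4 and atx5 mutations had the same effect in Col-0 as in atx1/2. It tested the change in atx1/2/4/5 over atx1/2 against that in atx4/5 over Col-0, 4 groups with no library in common between the 2 changes. Since the alleles are not given, a difference of background and a difference of allele cannot be told apart. In Col-0 the mutations gave 239 genes that were higher (0.962% of genes tested) and 565 that were lower (2.27%), and 339 of these 804 changed at least 2-fold (1.36%). The difference between the 2 changes was called for 2141 genes toward higher in the atx1/2 background (8.62%) and 2357 toward lower (9.49%). Of the 3750 genes higher in atx1/2/4/5, 103 were also called higher in atx4/5 over Col-0, which is 2.75% of the one list and 43.1% of the other. Among the 3944 lower genes 306 were also called lower in atx4/5, which is 7.76% of the one list and 54.2% of the other. Called the other way in atx4/5 over Col-0 were 33 of the 3750 higher and 45 of the 3944 lower genes. The 2 changes had the same sign, called or not, in 55.6% of the higher and 54.8% of the lower genes. The 852 genes at least 2-fold lower in atx1/2/4/5 had a median log2 fold change of -1.60 there and -0.47 in atx4/5 over Col-0, whereas the 755 genes at least 2-fold higher had 1.77 and 0.

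**Figure D5:**
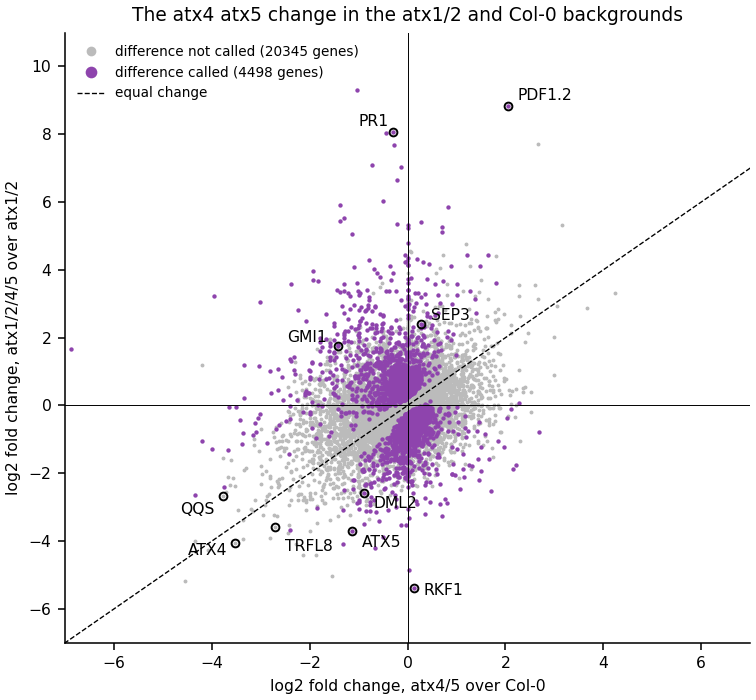
Log2 fold change of each of 24843 genes in atx1/2/4/5 over atx1/2 (y axis) against that in atx4/5 over Col-0 (x axis); purple points are the 4498 genes whose change differed between the backgrounds by limma, and the dashed line marks equal change. PDF1.2 and PR1 rise on the y axis and RKF1 falls, all far from the line, whereas ATX4 and TRFL8 lie near it.

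The genes with the largest difference toward higher were PDF1.2c, PDF1.2b, PR1, PDF1.3 and DXPS1, all low in atx4/5 and in Col-0. High values were not particular to atx1/2/4/5: in atx2/3/4/5, PDF1.2c had 2034 and 959, PR1 2945 and 1540, PDF1.3 3952 and 2338 and DXPS1 1789 and 766. NATA1 had 10086 and 8849 and CYP82G1 689 and 372 in atx2/3/4/5, above their values in atx1/2/4/5. PR1 had 1.55 and 16.0 in atx4/5 and 4.12 and 11.8 in Col-0, and the difference between the backgrounds was 8.36 ± 1.21 on the log2 scale (limma adjusted p = 0.00252). Those toward lower were RKF1, TPS14, GDPD3, HSFA6A and MIR395e. RKF1 had 808 and 827 in atx4/5 and 717 and 780 in Col-0, and 438 and 451 in atx2/3/4/5, and the fall in the atx1/2 background was not seen in atx4/5 (difference -5.50 ± 0.78, limma adjusted p = 0.00272). TPS14, a terpene synthase, had 1.68 and 3.304 in atx1/2/4/5, 18.7 and 11.3 in atx1/2, 12.6 and 7.40 in atx4/5 and 2.05 and 3.91 in Col-0. The 2 changes had opposite signs, but that in atx4/5 over Col-0 was not called (1.47 ± 0.58, limma adjusted p = 0.223) and rests on few reads. MIR395e, a microRNA precursor of the sulfate starvation response, was near 1 to 2 reads in atx1/2/4/5, atx1/2 and Col-0 and had 9.37 and 10.7 in atx4/5.

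Of the 10 largest named falls, ATX4, ATX5, ABCB3 and TRFL8 were also called lower in atx4/5 over Col-0, and the other 6 were not. TRFL8 had 30.1 and 26.4 in atx4/5 and 171 and 211 in Col-0, and its difference between the backgrounds of -0.89 ± 0.47 was not called (limma adjusted p = 0.223). For ATX4 the difference of -0.54 ± 0.30 was not called (limma adjusted p = 0.253), whereas ATX5 had 237 and 224 in atx4/5 and 472 and 547 in Col-0, a smaller fall than in the atx1/2 background (difference -2.58 ± 0.19, limma adjusted p = 1.13e-06). QQS had 2.34 and 2.40 in atx4/5 and 36.8 and 55.7 in Col-0, and its difference was not called. The DNA demethylases fell further in the atx1/2 background. DML2 had 192 and 206 in atx4/5 and 354 and 390 in Col-0, with a difference of -1.67 ± 0.21 (limma adjusted p = 6.84e-05), and ROS1 905 and 1014 in atx4/5 and 1538 and 1595 in Col-0, with a difference of -0.73 ± 0.15 (limma adjusted p = 0.004).

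For the lists, the difference was called toward lower for 24 of 25 photosynthesis genes and toward higher for 14 of 25 jasmonate genes. LOX2 also rose in atx4/5, at 25880 and 28686 in atx4/5 and 17019 and 17296 in Col-0, and VSP2, at 11806 and 12372 in atx4/5 and 7435 and 7111 in Col-0, had a difference of 0.03 ± 0.10. Floral organ genes gave 2 differences, SEP3 and AG. SHP1 had 21.2 and 28.4 in atx4/5 and 3.08 and 5.87 in Col-0 and PI 27.8 and 24.1 against 10.2 and 13.7, and of the 2 only SHP1 was called in atx4/5 over Col-0 (limma adjusted p = 0.0037). GMI1 went in opposite directions, at 50.6 and 71.0 in atx4/5 and 141 and 189 in Col-0, with a difference of 3.18 ± 0.30 (limma adjusted p = 8.69e-06).

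The called genes were also described by annotation. Protein-coding genes made up 92.6% of the genes at least 2-fold higher and 93.0% of those at least 2-fold lower, against 93.7% of all genes tested. Annotated long noncoding RNAs were 2.12% of the higher set and 5.05% of the lower set, against 4.11% of all. The median gene length was 1860 bp in the higher set and 2016 bp in the lower set, against 2182 bp over all genes. Within 1 Mb on each side of ATX4, 181 of 550 tested genes were called (32.9%), and around ATX5 158 of 493 (32.0%), against 31.0% of all genes.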

How the data were processed

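RNA sequencing values of 14 libraries were used, and the 4 of atx1/2/4/5 and atx1/2 form the comparison. Per the submitters' processing notes, HISAT2 2.2.0, edgeR (version not given) and the build TAIR10 were used. The authors deposited a normalised signal for each gene, which looks like edgeR pseudo-counts scaled to one library size. These are not whole reads, so no model for raw counts was run. The read counter, strand and depth in reads are not given in the sources used here, nor is it said which libraries had 150-base paired and which 50-base single reads.

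The scale was log2(value + 1), on which folds of low genes come out too small. Linear models over all 7 groups used limma 3.58.1 under R 4.3.3, with a mean-variance trend and robust moderation (statmod 1.5.0). Beside the atx groups and Col-0, the groups fitted were a combined mutant of JMJ24 and further JMJ genes and a line labelled WDR5A_RNAi. The spread within both of these also enters the p-values. A gene is called where its Benjamini-Hochberg adjusted p over the 24843 genes is under 0.05. For 2 libraries against 2, an exact two-sided permutation test cannot go below p = 0.333, so spread was pooled over genes and groups. The fits were also run on simulated data, whose outcome is not given here and on which no result rests. All 32548 identifiers matched the RefSeq TAIR10.1 annotation, the source of names, coordinates and sequences.

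The comparison, the 29 gene lists (422 entries, 421 of them in the table) and the naming rule were chosen with earlier results of these data known. The rule names ATX1 to ATX5, FLC, FT and IBM1. It adds the 10 largest called rises and 10 largest falls with a symbol, non-overlapping groups and a mean of 10 or more where higher. It also adds up to 4 called members of each list by adjusted p, and 5 genes each way for the difference between backgrounds. Other list members appear where their list is described. Alternatives were pseudocounts of 0.5 and 5, no filter or a minimum of 10, no trend, no robust moderation, equal column totals, quantile normalisation, the contrast's groups alone, each library left out and a replicate block.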

Additional observations from a re-analysis of the deposited data

Results flagged for a closer look

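For 87 named genes the change in atx1/2/4/5 over atx1/2 differed from that in atx4/5 over Col-0. The test was limma's test of the difference, with a Benjamini-Hochberg adjusted p under 0.05 over all genes. Over all 24843 genes tested, 4498 were called in this way (18.1%). Most named genes were picked for a called change over atx1/2, which enters this difference, or for the difference itself. Their count is therefore no result by itself. Each value in brackets is that difference on the log2(value + 1) scale, and a positive one means a higher change in the atx1/2 background. Among the genes with the largest rises it was positive for PDF1.2c (10.33), PDF1.2 (6.78), PR1 (8.36), PDF1.2b (8.47), PDF1.3 (7.96), DXPS1 (7.81), NATA1 (7.17), ELI3-2 (6.87) and CYP82G1 (6.55). It was also positive for the defence genes picked after their values were seen, TPS04 (7.29), BSMT1 (6.83) and TAT3 (5.14). Other immune and jasmonate genes with a positive difference were PR2 (3.72), PR5 (2.24), EDS5 (1.04), AOC2 (1.04), LOX2 (1.17) and AOC1 (1.28). Seed and senescence genes with one were SESA1 (5.32), OLEO1 (4.40), OLEO2 (4.34), PER1 (3.59) and SAG13 (5.17). Genes of flowers, meristems and cell division with one were SEP3 (2.14), LOB (1.45), PCNA1 (0.84), MCM2 (0.46), CYCD3;3 (0.47) and MCM5 (0.50). Genes of DNA damage, DNA methylation, heat, auxin and iron with one were GMI1 (3.18), TSO2 (0.90), PARP2 (0.86), VIM3 (0.56), HSC70-1 (0.31), ARF4 (0.45) and F6'H1 (0.71). Genes of glucosinolate and flavonoid synthesis with one were CYP79F2 (0.73), MAM3 (0.78), UGT74B1 (0.54), SOT16 (0.72), SUR1 (0.54) and CHI (0.51). The difference was negative for ATX5 (-2.58), RKF1 (-5.50), PHE1 (-2.75), TPS14 (-3.66), GDPD3 (-3.58), HSFA6A (-3.56) and MIR395e (-3.46). Chromatin genes with a negative difference were ATX3 (-0.53), PKDM7D (-1.35), JMJ18 (-0.53), DML2 (-1.67), ROS1 (-0.73) and DML3 (-0.97). Flowering and clock genes with one were SVP (-0.60), SOC1 (-1.15), SNZ (-0.65), LNK2 (-0.88), RVE4 (-0.82), ZTL (-0.44) and PRR7 (-0.47). Photosynthesis and light genes with one were LHCB1.1 (-0.90), LHCB2.1 (-0.86), LHCB2.2 (-0.80), LHCA1 (-0.79), PIF4 (-0.96), PIF5 (-0.73), CRY1 (-0.71) and HB2 (-0.79). Hormone genes with one were GH3.6 (-0.82), IAA1 (-1.26), DWF4 (-0.62), CPD (-0.93) and ARR4 (-0.44). From the list of abscisic acid, drought and cold response, KIN1 (-1.46) and P5CS1 (-1.29) had one. Nutrient genes with one were SQD2 (-0.70), SPX1 (-0.58), IPS1 (-1.65), LBD37 (-0.44), NRT2.1 (-1.41) and NIA2 (-0.43). The remaining negative differences were those of CLV1 (-0.54), SEN1 (-1.11), NAP (-2.71) and SGR1 (-0.54). At BSMT1 and PDF1.2b both atx1/2 libraries were at 0, as were both atx4/5 libraries at BSMT1. SESA1 was at 0 in both atx4/5 and both Col-0 libraries. The differences of these genes depend on the pseudocount, and those of other genes with a group near 0, such as DXPS1 and ELI3-2, do so in part. TPS14 and GDPD3 lost the call of their change over atx1/2 when atx1/2/4/5 replicate 1 or atx1/2 replicate 1 was left out, and MIR395e, which rests on few reads, was not called in atx1/2/4/5 over atx1/2 and was called higher in atx4/5 over Col-0.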

How the results depend on the processing

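The count of 7694 called genes lay between 5242 and 6160 when 1 library was left out, at 6562 without the trend and at 6947 with the contrast's groups alone, and between 7618 and 8790 otherwise. Equal column totals gave 8790 calls, 69.1% of them higher against 48.7% before. Of 120 called named genes 103 kept the call under every alternative, 16 lost it under at least 1, and LHCA1 changed sign under quantile normalisation (0.01). With equal column totals the log2 fold change of ATX3 was 0.02, and the calls higher minus calls lower became 1 for H3K4 methyltransferases, 2 for the JMJ24 and IBM1 family and 4 for DNA methylation. The labels do not say that a replicate number marks a shared batch or day, and the deviations of same-numbered libraries of the compared groups correlated at -0.005. A fit with the replicate number as a block gave 8593 calls, 4178 higher and 4415 lower, and 5582 for the difference between backgrounds against 4498. Under that block the net calls became 1 for the JMJ24 and IBM1 family and 1 for DNA methylation, and 6 heat genes were higher. The causes of these changes were not tested. Values under about 3 reads are at the limit of depth, and with 2 libraries a group the spread is borrowed from other genes and groups.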
